A study of Mus musculus with 34 samples.

Results

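Il23a, Il12b and Ebi3 encode subunits of the IL-12 family of cytokines, and they were followed here in macrophages of the mouse colon, sorted from its lamina propria. They were chosen by name, as the rows Il23a, Il12b and Ebi3 in whichever of 3 deposited expression tables list them, and make up 3 of the 9851 genes listed in at least 1 table. The first table lists 9022 genes and holds all 3. The rescue table lists 8816 genes and holds Il12b and Ebi3. The neutrophil table lists 8793 genes and holds only Ebi3 of the 3.

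The study profiled polyadenylated RNA of gut macrophages that lack IL-10Rα, the ligand-binding chain of the IL-10 receptor, in 34 libraries of 10 groups. All mice were C57BL/6, and the sorted cells were CD64+, CD11b+ and CD45+ with intermediate CD11c and without Ly6c or CD103. In the first table, 3 libraries titled CXhet and 3 titled IL10R came from untreated mice of 6 to 7 weeks. Mice of the same age gave the libraries of the rescue table, namely 2 titled CX, 5 titled IL10R and 4 titled IL10R_P19, all untreated, and 4 titled IL10R_abx and 3 titled littermate_abx from mice given antibiotics in their drinking water. Every title there begins with Rescue_P19_macrophages, and P19 below means only the P19 that follows IL10R. The titles shortened here to littermate_abx read IL10R_littermate_abx. Every IL10R, IL10R_P19 and IL10R_abx title there also carries 5C5, and no CX or littermate_abx title does. What 5C5 stands for is not spelled out, and it cannot be told apart from these groups. The neutrophil table has 4 wt, 3 ko_igg and 3 ko_ly6g libraries from bone marrow chimeras, 4 weeks after chimerism. The labels give every chimera library an anti-ly6g injection, whereas the titles separate igg from ly6g, and the titles were followed. CXhet, CX and the genotype of the littermates are not spelled out in the labels, nor is a Cre driver, nor whether libraries came from separate mice, so the p-values below measure only the spread between libraries, which may be technical.

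Cytokines of this family are built from an alpha chain paired with a beta chain. The p19 chain made by Il23a joins the p40 chain made by Il12b to form IL-23, and the same p40 chain joins the p35 chain made by Il12a to form IL-12. Ebi3 encodes a beta chain that pairs with the p28 chain made by Il27 to form IL-27, and with p35 to form IL-35. Macrophages and dendritic cells are the main sources of IL-23 and IL-12, IL-23 maintains IL-17-producing and IL-22-producing lymphocytes in the gut, and IL-10 is a textbook repressor of p40 production in macrophages.

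Il23a lies on the minus strand of chromosome 10, from 128296139 to 128298752 (GENCODE M21, GRCm38). Il12b lies on the plus strand of chromosome 11, from 44400063 to 44414033, and Ebi3 on the plus strand of chromosome 17, from 55952640 to 55957022, where the antisense gene Gm16712 overlaps it. Whether the counting used strand is not given in the sources used here, so reads of Ebi3 and of that antisense gene cannot be told apart. The start regions of the 2 genes whose levels parted in the rescue table follow, 250 bases before to 50 bases after the start. Both come from RefSeq (GRCm38.p6), whose promoter table matched 2 of the 3 members, at chr11:44399813-44400112 and chr17:55952373-55952672 on the plus strand. Capitals mark matches, on either strand, to a loose form of the NF-kB site, namely GGG, then any 5 bases, then CC.
Il12b start region: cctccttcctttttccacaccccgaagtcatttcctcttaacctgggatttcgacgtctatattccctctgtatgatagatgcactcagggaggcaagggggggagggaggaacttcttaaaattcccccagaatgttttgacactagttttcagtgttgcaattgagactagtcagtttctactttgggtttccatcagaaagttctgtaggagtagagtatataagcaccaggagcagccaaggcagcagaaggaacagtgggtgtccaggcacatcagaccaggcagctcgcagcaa
Ebi3 start region: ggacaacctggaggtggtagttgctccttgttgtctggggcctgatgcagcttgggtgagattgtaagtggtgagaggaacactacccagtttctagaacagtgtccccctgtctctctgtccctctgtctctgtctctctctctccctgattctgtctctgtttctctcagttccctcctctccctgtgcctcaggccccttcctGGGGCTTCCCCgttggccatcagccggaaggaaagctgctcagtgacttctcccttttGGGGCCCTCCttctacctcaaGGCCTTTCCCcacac
The Ebi3 window held 4 matches, beginning at bases -44, -43, 15 and 36 relative to the start, of which the first and second overlap. The Il12b window held 0 matches to these letters. Neither window held a match to an IRF form (TTTC, any 2 bases, TTTC), a C/EBP form (TTNCNNAA) or a STAT form (TTCNNNGAA). Of 32817 start regions of the same length, 50.8% held at least 1 match to the NF-kB form, 3.43% to the IRF form, 40.7% to the C/EBP form and 8.29% to the STAT form. These are descriptions of letters in the window and not of bound factors.

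Values are deposited as normalized reads per gene, and dividing each by its library's smallest step gave back whole reads. Each first-table library held between 1458726 and 2487074 reads in listed genes, and each rescue-table library between 747046 and 2775974, with 1028567 to 4525047 in the 8 of 10 neutrophil-table libraries whose reads could be recovered. Intervals on reads cover counting error only. Il10ra, the gene of the missing receptor chain, was at 371 to 689 in CXhet and at 9.26, 361 and 65.9 in the 3 IL10R libraries of the first table, so the library labelled IL10R 2 goes against its label. That library also stood farthest from CXhet on the first principal component, which held 64.5% of the variance (65.4, against 20.3 and 29.6 in the other IL10R libraries and -47.2 to -30.4 in CXhet). First-table results are therefore given with and without it. In the rescue table Il10ra was at 1.70 to 31.2 in IL10R, IL10R_P19 and IL10R_abx and at 138 to 284 in CX and littermate_abx. In the neutrophil table it was at 32.2 to 111 in ko_igg and ko_ly6g and at 247 to 827 in wt.

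The question of the first table is how macrophages lacking the receptor chain differ from CXhet macrophages. Both chains of IL-23 rested on a few reads per library in CXhet and were higher in IL10R, by 10.7-fold for Il23a and 11.4-fold for Il12b, while Ebi3 was abundant in both groups. Il23a was at 10.3, 2.80 and 1.39 normalized reads in the CXhet libraries, which is 6, 3 and 1 reads, and at 58.2, 54.4 and 45.9 in the IL10R libraries, which is 44, 42 and 39 reads. Every IL10R library lay above every CXhet library, and the IL10R libraries differed little among themselves. Tested with limma on log2(value + 1.31) over all listed genes, the change of Il23a was 3.42 (SE 0.58, 95% interval 2.11 to 4.72, Benjamini-Hochberg adjusted p = 0.0076). The summed reads were 125 against 10, a ratio of 12.5 (95% interval 6.57 to 26.7). Without the library labelled IL10R 2 the change was 3.39 (limma adjusted p = 0.0184).

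Il12b, the chain shared by IL-23 and IL-12, was at 3.42, 0.932 and 5.56 in CXhet and at 75.4, 50.5 and 25.9 in IL10R. The IL10R libraries again lay above all CXhet libraries but were spread over a wider range than for Il23a. The log2 change was 3.51 (SE 0.61, 95% interval 2.13 to 4.89, limma adjusted p = 0.00852), and 3.45 without the library labelled IL10R 2 (adjusted p = 0.0214). Summed reads were 118 against 7, a ratio of 16.9 (7.93 to 42.8). In that comparison limma called 8.76% of all listed genes, 4.47% in the higher direction, and 15.2% of genes had all IL10R libraries above all CXhet libraries, against 2 of the 3 members on each count. With 3 libraries against 3, an exact permutation test of 1 gene cannot go below p = 0.1, which both genes reached. In sorted bulk RNA, more cells of a type that makes a cytokine and more RNA per cell cannot be told apart.

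Ebi3 was at 614, 323 and 247 in CXhet and at 448, 451 and 467 in IL10R. The 3 IL10R values lay close together and inside the CXhet range. Its log2 change was 0.31 (SE 0.30, 95% interval -0.37 to 0.99, limma adjusted p = 0.557), an interval that reaches from 0.776-fold to 1.99-fold. Without the library labelled IL10R 2 it was 0.32 (adjusted p = 0.677).

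**Figure D1:**
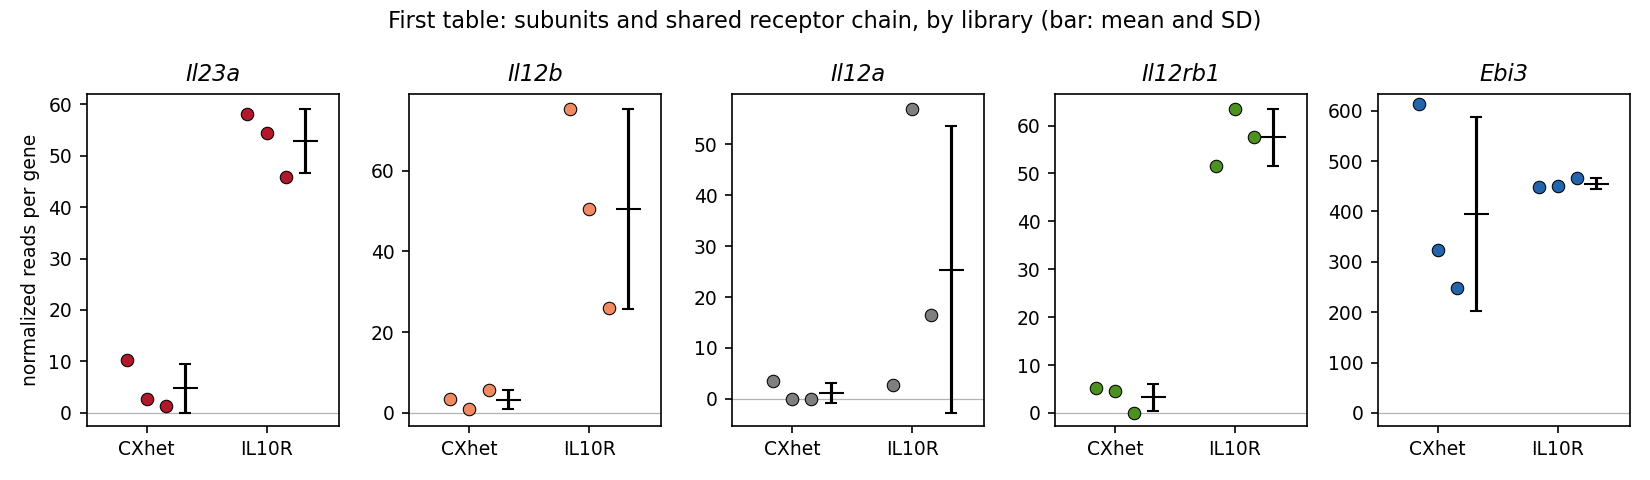
Normalized reads per gene (vertical axis, linear, 1 scale per panel) of Il23a, Il12b, Il12a, Il12rb1 and Ebi3 in the 3 CXhet and 3 IL10R libraries of the first table, with 1 point per library and a bar at the mean with its SD. Il23a, Il12b and Il12rb1 have no overlap between groups, whereas the IL10R libraries of Ebi3 sit at 448 to 467, inside the CXhet range of 247 to 614.

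Of the partner chains and receptors, the first table lists Il12a and Il12rb1, and neither Il27 nor Il23r was among the listed genes of any table. Il12a, the p35 chain of IL-12, was at 3.42, 0 and 0 in CXhet and at 2.64, 57.0 and 16.5 in IL10R. Its highest value was in the library labelled IL10R 2, and its lowest IL10R value lay inside the CXhet range. The log2 change of 2.99 (SE 1.08) did not pass (limma adjusted p = 0.121), nor did the 2.06 without that library (adjusted p = 0.33). Il12rb1, the receptor chain shared by IL-12 and IL-23, was at 5.13, 4.66 and 0 in CXhet and at 51.6, 63.5 and 57.7 in IL10R. It rose by 3.99 on the log2 scale (SE 0.66, adjusted p = 0.00679), and by 3.92 without the library labelled IL10R 2 (adjusted p = 0.0173). Its summed reads were 137 against 8.

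Downstream of these receptors, 3 of the 7 listed genes of the JAK-STAT list rose and none fell, with a list median of 0.43 against -0.03 over all genes. Socs1, a feedback inhibitor of JAK kinases, rose by 2.49 (SE 0.32, limma adjusted p = 0.00242). Jak2, a kinase bound to the IL-12 and IL-23 receptors, rose by 1.08 (SE 0.24, adjusted p = 0.0234). Without the library labelled IL10R 2 these changes were 2.24 and 0.84, and the list again had 3 genes higher and none lower.

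Factors known for acting on these genes passed about as often as listed genes in general, of which 8.76% were called. Of 17 listed transcription factors linked to Il12b, Il23a or Ebi3, 1 rose and 1 fell, with a median of 0.05. Irf1, an interferon-induced activator, ranged from 766 to 926 among CXhet and from 1985 to 2704 among IL10R libraries and rose by 1.50 (SE 0.21, limma adjusted p = 0.00357). Ddit3, a stress-induced factor of the C/EBP family, fell by 1.42 (SE 0.30, adjusted p = 0.0207). Of 11 repressors and RNA decay factors, only Atf3, a repressor of cytokine genes, passed, and it fell by 0.96 (SE 0.24, adjusted p = 0.0361). Leaving out the library labelled IL10R 2 kept the calls of Irf1 (1.45) and Ddit3 (-1.37) but not that of Atf3, and Maf, at -1.32, then passed (adjusted p = 0.04998).

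Of 6 listed cytokines that act with IL-23 or IL-12, Il1a and Tnf rose and none fell, with a median of 0.70. Il1a, an alarmin of the IL-1 family, ranged from 19.5 to 42.7 among CXhet and from 165 to 315 among IL10R libraries, a rise of 2.83 (SE 0.34, adjusted p = 0.00172). Tnf rose by 1.12 (SE 0.29, limma adjusted p = 0.0446), and this call was lost without the library labelled IL10R 2, whereas Il1a stayed called at 2.54. Il6 was not among the listed genes of any table. Of 10 lymphocyte-side genes of the IL-17 and IL-22 axis the first table lists Il22ra1 alone, the epithelial receptor chain of IL-22, and it did not pass (-0.17).

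Markers of some other cells moved with Il23a and Il12b. Of 12 dendritic cell markers 5 were listed, with a summed share of all reads of 0.00487% to 0.00663% in CXhet and 0.00886% to 0.0141% in IL10R. Flt3, Zbtb46, Xcr1, Clec9a, Itgae and Cd209a were not among the listed genes. Ccr7, a migration receptor of mature dendritic cells, was at 0, 5.59 and 12.5 in CXhet and 231, 232 and 90.6 in IL10R. It was the only 1 of the 5 to pass as higher (5.10, limma adjusted p = 0.00566). Kmo, an enzyme of tryptophan breakdown, fell by 2.22 (limma adjusted p = 0.0107), and Dpp4 (-1.02), Kit (0.89) and Fscn1 (1.41) did not pass. Without the library labelled IL10R 2, Kmo fell by 1.83 and Fscn1 passed as higher (1.62, limma adjusted p = 0.0497). The 5 listed of 7 monocyte markers summed to 0.0235% to 0.0382% in CXhet and 0.0571% to 0.183% in IL10R, with 3 higher and none lower. The 6 listed of 10 neutrophil markers summed to 0.00591% to 0.00946% in CXhet, where Retnlg was at 0 in every library, and 0.0203% to 0.0291% in IL10R. The 11 listed of 13 macrophage markers made up 1.99% to 3.27% in CXhet and 2.37% to 2.59% in IL10R. The 2 listed T and innate lymphoid markers overlapped (0.00933% to 0.0168% and 0.00480% to 0.0196%), with 1 higher. The 5 listed B and plasma cell markers overlapped too (0.0207% to 0.0421% and 0.0293% to 0.0462%), and none passed. The 12 epithelial markers made up 0.570% to 1.18% in CXhet and 0.381% to 0.628% in IL10R, overlapping, with 2 lower and none higher. The part of these cells in the rise of Il23a and Il12b was not tested.

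The genes most like each member were found by Pearson correlation over the 6 libraries, among 6470 genes above the lower quartile of mean value. For Il23a they were Trpm2 (r = 1.00), Stat2 (0.997), Klra2 (0.997), Fam26f (0.996) and Slc25a25 (0.996). For Il12b they were Inpp5b (0.994), Spata13 (0.980), Rbck1 (0.977), Ppp1r15b (0.976) and Myo1e (0.975). For Ebi3 they were Gtf3c1 (0.997), Slc38a6 (0.984), Emilin1 (0.982), Ppp1r9b (0.981) and Cotl1 (0.977). The libraries form 2 groups, so for Il23a and Il12b these values mostly order genes by the group difference. For Ebi3, which did not pass, they mostly follow the spread among the CXhet libraries. Gtf3c1, for example, averaged 59.8 (SD 25.6) in CXhet and 67.2 (SD 2.12) in IL10R. All these values are a description only.

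The rescue table asks how IL10R macrophages differ when the title adds P19, the name of the chain that Il23a encodes, or antibiotics. There Il12b was highest in IL10R, with a group mean of 28.1 ± 16.2 (SD, n = 5), and lower in each of the other groups. It averaged 6.60 ± 2.87 (n = 4) in IL10R_abx, 5.25 ± 4.12 (n = 3) in littermate_abx, 4.65 ± 4.89 (n = 4) in IL10R_P19 and 2.41 ± 0.989 (n = 2) in CX. Ebi3 ran the other way, from 74.5 ± 15.8 in IL10R through 129 ± 34.8 in IL10R_P19, 145 ± 27.5 in CX and 213 ± 14.4 in littermate_abx to 240 ± 62.6 in IL10R_abx. Each group's Il12b libraries overlap those of the next group in that order. The Ebi3 libraries of neighbouring groups overlap too, except those of CX and littermate_abx.

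The rescue table lists no gene whose highest value is under 37.0, and only 5.66% of its genes peak lower than Il12b. Il12b reached that level in the libraries IL10R_27 and IL10R_61 alone, so it is in the table only through the group in which it was high. Its level in IL10R had to be high for it to be listed, so its differences from IL10R are given as values, with no test. Il23a was not among the listed genes of the rescue and neutrophil tables.

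In the libraries IL10R_27, IL10R_32, IL10R_61, IL10R_67 and IL10R_68, Il12b was at 42.9, 33.2, 42.5, 12.9 and 8.85 normalized reads, and in CX at 3.11 and 1.71. All 5 IL10R libraries lay above both CX libraries, with 3 at 33.2 or more and 2 well below. The log2 difference was 2.88 (SE 0.85), and summed reads were 155 against 6. In this comparison 17.7% of all genes had every IL10R library above CX. With 1 library left out at a time the difference ran from 2.58 to 3.21.

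In IL10R_P19, Il12b was at 0, 11.4, 2.60 and 4.57. Of these 4 libraries 3 lay below all IL10R libraries, and the 11.4 lay between IL10R_68 and IL10R_67. The difference from IL10R was -2.63 (SE 0.68), and -3.18 to -1.97 with 1 library left out at a time. Against CX the difference was 0.25 (SE 0.88, limma adjusted p = 0.987), with an interval from -1.59 to 2.09, or 0.333-fold to 4.26-fold. Both comparisons share libraries with that of IL10R against CX.

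With antibiotics, Il12b was at 10.9, 5.64, 5.09 and 4.80 in IL10R_abx and at 9.29, 5.42 and 1.05 in littermate_abx, so the groups overlapped. The 10.9 of IL10R_abx_160 and the 9.29 of 1 littermate_abx library exceeded the lowest untreated IL10R library (8.85). The difference of IL10R_abx from IL10R was -1.76 (SE 0.68), and -2.09 to -1.55 with 1 library left out at a time. IL10R_abx differed from littermate_abx by 0.50 (SE 0.78, 95% interval -1.12 to 2.12, limma adjusted p = 0.796), in a comparison with 0.034% of genes called. Littermate_abx differed from CX by 0.62 (SE 0.93, adjusted p = 0.655). The difference between the IL10R effect with and without antibiotics was -2.38 (SE 1.15), again a value only.

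Ebi3 was at 55.9, 83.0, 65.1, 72.1 and 96.5 in IL10R and at 165 and 126 in CX. Every IL10R library lay below both CX libraries, which held for 16.7% of all genes. The log2 change was -0.97 (SE 0.27, 95% interval -1.52 to -0.41, limma adjusted p = 0.0312), a level 1.95-fold lower, in a comparison with 7.5% of genes called (3.01% higher and 4.49% lower). Leaving out IL10R_27, IL10R_61, IL10R_67, CX 1 or CX 3 ended the call, with adjusted p from 0.0537 to 0.371. The direction differs from the first table, where Ebi3 did not pass, but the tables were normalized separately and the difference between them was not tested.

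In IL10R_P19, Ebi3 was at 80.0, 162, 142 and 131, with 1 library inside the IL10R range and 3 above it. The change against IL10R was 0.76 (SE 0.21, 95% interval 0.31 to 1.20), which missed the threshold in limma (adjusted p = 0.0716), where 1.81% of genes passed. It passed in edgeR's quasi-likelihood test on the recovered reads (0.79, adjusted p = 0.0339), where 4% of genes did. It also passed in limma without IL10R_68 (0.86, adjusted p = 0.0334) or without IL10R_P19_100 (0.97, adjusted p = 0.00956). Against CX it was -0.21 (SE 0.28, 95% interval -0.78 to 0.37, limma adjusted p = 0.956), where 0.034% of genes were called.

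In IL10R_abx, Ebi3 was at 146, 273, 271 and 269, all above every untreated IL10R library, which held for 20% of genes. It rose by 1.65 (SE 0.21, 95% interval 1.21 to 2.10, limma adjusted p = 2.2e-06), a 3.14-fold difference, and kept the call with any 1 library left out. In that comparison 55.6% of all genes were called, 27.7% higher. Littermate_abx was at 229, 203 and 205. IL10R_abx and littermate_abx overlapped and differed by 0.13 (SE 0.24, 95% interval -0.38 to 0.64, adjusted p = 0.838). Littermate_abx lay above CX in every library, as did 30.5% of genes, and the change of 0.56 (SE 0.29) did not pass (adjusted p = 0.159) in a comparison with 31% of genes called. Fitted on those groups alone it passed (adjusted p = 0.0269). The IL10R effect with antibiotics minus that without was 1.09 (SE 0.36, limma adjusted p = 0.249), where 0.0907% of genes passed.

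**Figure D2:**
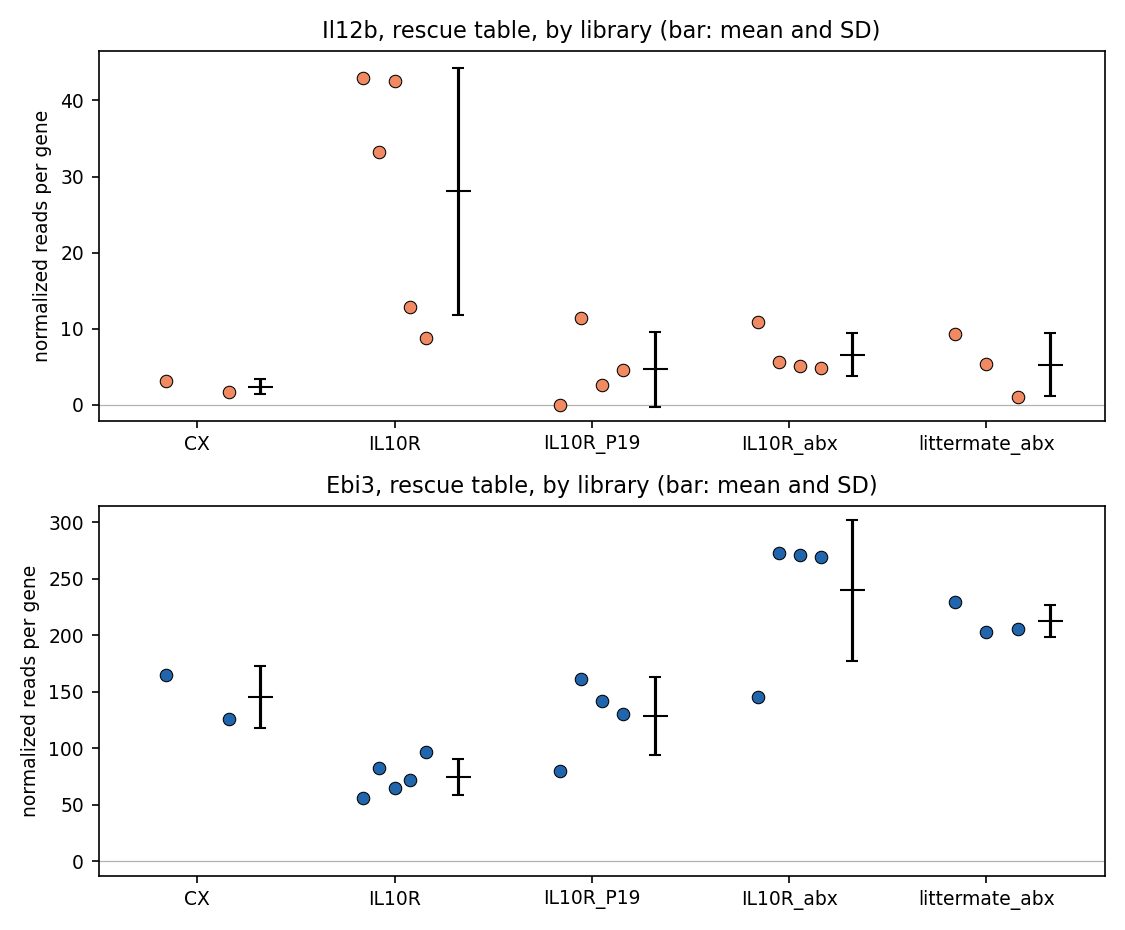
Normalized reads per gene (vertical axis, linear, 1 scale per panel) of Il12b and Ebi3 in the 5 groups of the rescue table, with 1 point per library and a bar at the mean with its SD. Il12b is highest in IL10R (8.85 to 42.9) and at 11.4 or less in the other groups, while Ebi3 is lowest in IL10R (55.9 to 96.5) and highest in the 2 antibiotic groups (146 to 273).

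The share of reads in macrophage markers moved with Ebi3. The 11 listed of 13 macrophage markers (Fcgr1, Adgre1, Cx3cr1, Csf1r, C1qa, C1qb, C1qc, Cd68, Itgam, Cd14 and Lyz2) made up 0.869% to 1.16% of reads in IL10R, 1.04% to 1.64% in IL10R_P19, 1.94% in both CX libraries, 2.21% to 2.93% in IL10R_abx and 2.60% to 2.88% in littermate_abx. Of the 11, 9 fell in IL10R against CX and all 11 rose in IL10R_abx against IL10R. The 12 epithelial markers made up 1.30% to 1.76% in IL10R, 1.28% to 1.61% in IL10R_P19 and 1.27% to 1.40% in CX, against 0.253% to 0.447% in IL10R_abx and 0.233% to 0.351% in littermate_abx. Antibiotics, the epithelial share and whatever else set those libraries apart cannot be told apart here. Fewer macrophages among the sorted cells and less marker RNA per macrophage cannot be told apart either.

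Ebi3 was also expressed relative to those macrophage markers, which themselves differ between groups. Per 1000 normalized reads of the 11 markers, it stood at 5.32 ± 1.15 in IL10R (SD, n = 5), 6.42 ± 0.98 in IL10R_P19 (n = 4), 5.74 ± 1.71 in IL10R_abx (n = 4), 5.17 ± 0.86 in CX (n = 2) and 4.85 ± 0.36 in littermate_abx (n = 3). In the first table it was 6.34 ± 1.07 in CXhet and 7.24 ± 0.85 in IL10R, and among the chimeras 4.03 ± 0.44 in wt, 3.62 ± 0.73 in ko_igg and 3.47 ± 0.38 in ko_ly6g. The libraries overlapped in all 9 comparisons made. In 7 of them an exact permutation test cannot reach 0.05 with so few libraries (smallest p 0.0571 to 0.2), so their p-values are not given. In the other 2, where the smallest p is 0.0159, two-sided exact permutation tests gave p = 0.19 for IL10R_P19 against IL10R and p = 0.683 for IL10R_abx against IL10R (Benjamini-Hochberg adjusted over the 9, 0.771 and 0.857), which does not show that they are alike. The part of the marker share in the Ebi3 differences was not tested.

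**Figure D3:**
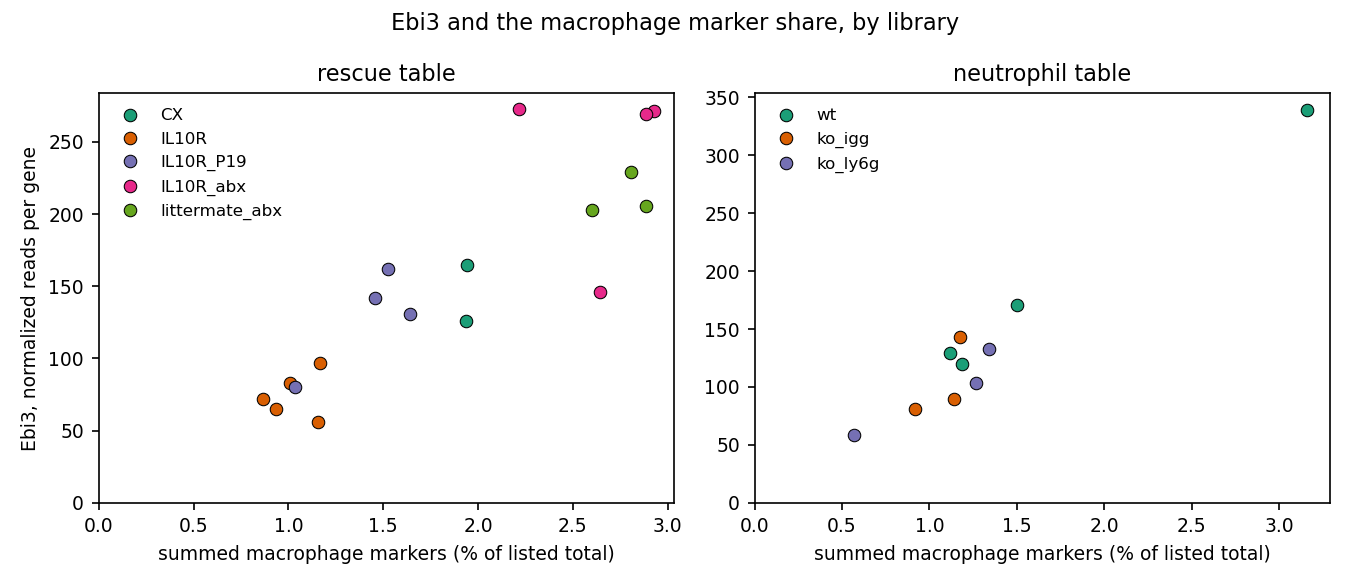
Ebi3 in normalized reads per gene (vertical axis) against the summed macrophage markers as a percentage of all listed reads (horizontal axis) in the rescue table (left) and neutrophil table (right), with 1 point per library coloured by group. Libraries with a small marker share have little Ebi3, as in IL10R (0.869% to 1.16%, Ebi3 at 55.9 to 96.5), and wt 1 with 3.16% has the highest Ebi3 of the neutrophil table at 339.

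For Il12b, the 4 listed of 12 dendritic cell markers summed to 0.00448% to 0.0103% in IL10R and 0.00515% to 0.00773% in CX, overlapping. Members of that list moved in opposite directions against CX, Ccr7 by 2.17 and Kmo by -2.16. Whether either gene is listed only through groups in which it was high was not examined. Both differences are therefore given as values, with no test. Dpp4 and Fscn1 were not called there (limma adjusted p = 0.887 and 0.377). The 5 listed of 7 monocyte markers summed to 0.0709% to 0.157% in IL10R, 0.0692% to 0.0754% in CX, 0.0579% to 0.0820% in IL10R_P19 and 0.0169% to 0.0460% in IL10R_abx. Of these 5, Ly6c1 was higher in IL10R than in CX by 1.88 (limma adjusted p = 0.0163) and the others did not pass. Their part in the Il12b difference was not tested.

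Other genes of the pathway that passed in the IL10R against CX comparison were all lower. Among all genes limma called 4.49% lower and 3.01% higher there. None of 7 JAK-STAT genes passed, with a median of 0.03 against 0.01 over all genes. Of 17 transcription factors 4 fell and none rose, with a median of -0.18. These were Batf3 (-0.90, limma adjusted p = 0.00295), Ddit3 (-1.71, adjusted p = 0.00157), Junb (-1.02, adjusted p = 0.0209) and Spi1, the myeloid master factor PU.1 (-0.95, adjusted p = 0.0264). Of 11 repressors and RNA decay factors, Etv3 (-0.84), Atf3 (-1.10) and Nfkbid (-0.85) fell. All 3 genes of the IL-10 arm fell, Il10 itself from 59.0 and 48.4 in CX to 13.7 to 24.1 in IL10R (-1.52, SE 0.32, adjusted p = 0.00773). Tgfb1, which can favour IL-17-producing cells together with other cytokines, fell by 1.39 (SE 0.22, adjusted p = 0.00147). The macrophage markers fell in the same comparison, 9 of 11 of them, and their part in these changes was not tested.

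In IL10R_P19 against IL10R, 4 listed pathway genes passed, namely 2 of 17 transcription factors, 1 of 11 repressors and 1 of 5 cytokines. Among all genes 1.81% passed, and 16 to 378 genes did with 1 library left out at a time. Batf3 rose by 0.62, Ddit3 by 1.02 and Tgfb1 by 0.72 (limma adjusted p = 0.0137, 0.0192 and 0.0385), and Bcl3, a nuclear inhibitor of NF-kB, fell by 1.16 (adjusted p = 0.0377). Batf3, Ddit3 and Tgfb1 are 3 of the genes lower in IL10R than in CX, and both comparisons use the same IL10R libraries. In IL10R_abx against IL10R, 16 of 17 transcription factors and 10 of 11 repressors rose and none fell, with medians of 1.47 and 1.89. These counts stand against 27.7% of all genes called higher. In the same comparison all 11 macrophage markers rose (median 1.66) and all 12 epithelial markers fell (median -2.07). In littermate_abx against CX, 13 of 17 and 11 of 11 rose, where 14.1% of all genes were called higher. There 6 of 11 macrophage markers rose and all 12 epithelial markers fell. The part of these markers in the changes of either comparison was not tested. Between IL10R_abx and littermate_abx the only pathway gene that passed was Il10ra, which fell by 4.86.

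The genes most like Il12b over the 18 rescue libraries, among 6322 searched, were Procr (r = 0.860), Igfbp7 (0.823), C1s1 (0.802), Dcp2 (0.782) and Lrg1 (0.775). Procr, the endothelial protein C receptor, averaged 109 in IL10R and 25.2 to 41.8 in the other groups, and Lrg1, a leucine-rich glycoprotein, ran from 19.3 to 1895 within IL10R. Those most like Ebi3 were Pip4k2a (0.961), Cd93 (0.957), Atp2b1 (0.953), Zswim6 (0.951) and Rftn1 (0.951). Cd93, a receptor of myeloid and endothelial cells, averaged 173 in IL10R and 385, 549, 1124 and 1166 in IL10R_P19, CX, IL10R_abx and littermate_abx. The libraries share their groups and their macrophage share, so these values are a description.

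The neutrophil table asks what anti-ly6g does in chimeras with receptor-deficient macrophages. Ebi3 was the only member listed. It was at 339, 129, 171 and 120 in wt, at 89.5, 80.8 and 143 in ko_igg and at 58.5, 133 and 104 in ko_ly6g. All 3 groups overlapped, and wt 1 stood above every other library. Against wt the change was -0.77 in ko_igg (SE 0.39, 95% interval -1.62 to 0.09, limma adjusted p = 0.232) and -0.89 in ko_ly6g (SE 0.39, adjusted p = 0.236), in comparisons with 9.29% and 4.58% of genes called. Without wt 1 the changes were -0.44 and -0.57. The macrophage markers were highest in the same library, at 3.16% of reads against 1.12% to 1.50% in the other wt libraries, 0.915% to 1.18% in ko_igg and 0.567% to 1.34% in ko_ly6g.

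Between ko_ly6g and ko_igg, Ebi3 differed by -0.12 (SE 0.42, 95% interval -1.04 to 0.80, limma adjusted p = 1.00). No gene passed in that comparison (0% of 8793), in limma or in edgeR. An unadjusted p under 0.05 was found for 203 and 70 genes, fewer than chance alone would give at that threshold. The genes most like Ebi3 over the 10 libraries were Lmo2 (r = 0.979), Hlx (0.977), Abi3 (0.975), Itga9 (0.974) and Lat2 (0.971), among 6334 searched, each highest in wt on average.

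Against wt, 2 of 7 JAK-STAT genes, 1 of 17 transcription factors, 1 of 11 repressors and 1 of 5 cytokines rose in ko_igg. In ko_ly6g 1 gene of each of these lists did, and none of their genes fell in either comparison. Among all genes, limma called 9.29% in ko_igg and 4.58% in ko_ly6g. Socs1 rose by 2.79 in ko_igg and 2.64 in ko_ly6g against wt (limma adjusted p = 0.00114 and 0.00241), Irf1 by 1.43 and 1.25, and Bcl3 by 1.20 in both. Tnf rose by 2.31 and 1.86. Ifng, the lymphocyte cytokine whose production IL-12 promotes, was at 0 to 2.10 in wt and 16.9 to 64.5 in ko_igg. No gene listed in the neutrophil table peaks under 53.6, so Ifng is listed only through groups in which it was high. Its differences from wt, 3.93 (SE 0.75) in ko_igg and 3.56 in ko_ly6g, are therefore given as values, with no test. The 3 listed of 10 T and innate lymphoid markers summed to 0.00492% to 0.00992% in wt, 0.00693% to 0.0122% in ko_igg and 0.00712% to 0.00942% in ko_ly6g, overlapping. Of the 3, Thy1 differed from wt by 2.26 in ko_igg and 1.51 in ko_ly6g. Lck, a T cell kinase, differed by 2.08 and 1.59, while Cd4 was at -0.93 and -0.55 and did not pass. Whether Thy1 and Lck are listed only through groups in which they were high was not examined. Their differences are therefore given as values too, with no test. The part of lymphocyte RNA in the Ifng difference was not tested. Both comparisons share the wt libraries. Il12b was not among the genes listed there.

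**Figure D4:**
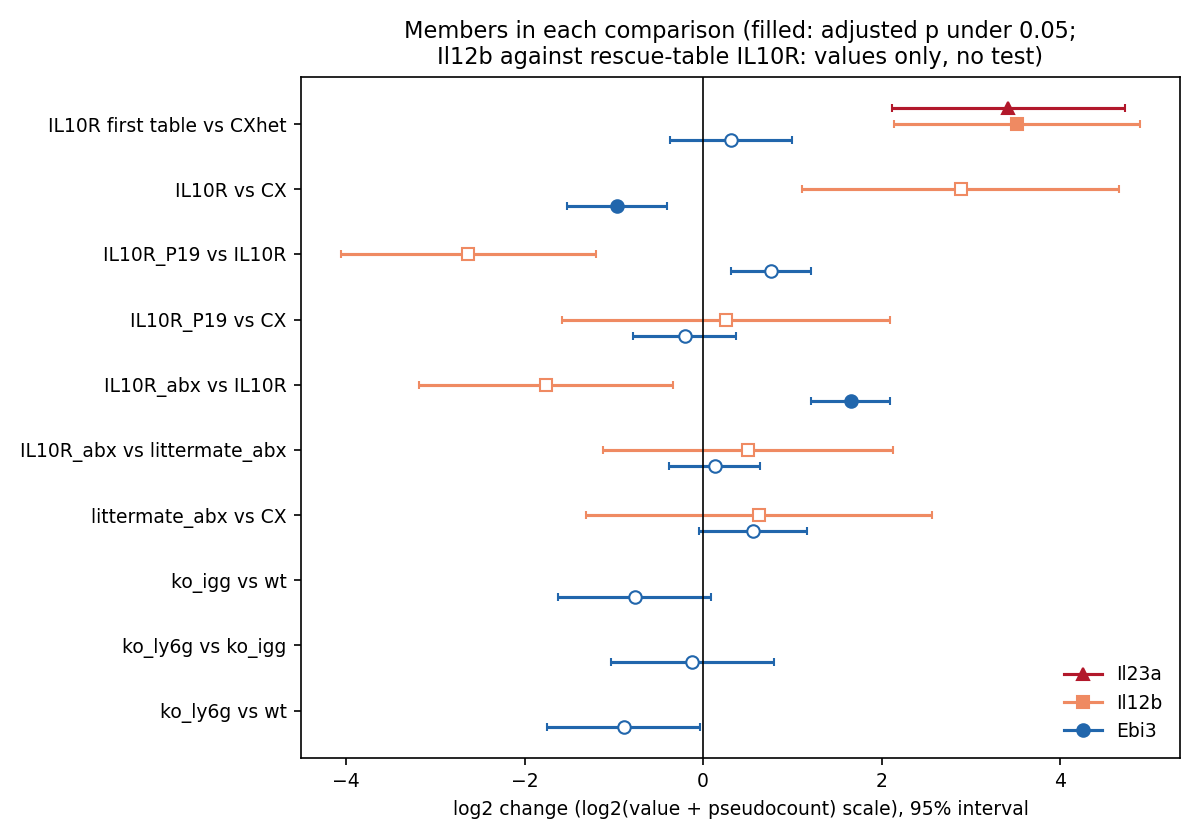
Log2 change of Il23a, Il12b and Ebi3 (horizontal axis, log2(value + pseudocount) scale) in 10 comparisons, where points are limma estimates, bars are 95% intervals and filled points have an adjusted p under 0.05, except that Il12b against IL10R of the rescue table is drawn open as a value with no test. Il23a and Il12b stand at 3.42 and 3.51 in IL10R against CXhet, and Il12b and Ebi3 stand on opposite sides of 0 in the comparisons of IL10R with CX, IL10R_P19 and IL10R_abx.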

How the data were processed

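Polyadenylated RNA of sorted colonic macrophages was measured in 34 libraries, grouped by their titles. Per the submitters' processing notes, the tools were bcl2fastq, HISAT (0.1.6) and HOMER, and the build was mm9. The deposited signal values are the authors' read numbers for each gene, scaled by a single factor in each library, as read from the values: multiples of each library's smallest step were whole within 0.01 for every value, except in 2 neutrophil-table libraries (ko_igg_16 and wt 3) for which this was not claimed. The filter that set which genes are listed is not given in the sources used here. Rows without a gene name (15399 in the first table, 15605 in the rescue table) were left out.

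Each table was fitted alone with limma (3.58.1, R 4.3.3; trend and robust) on log2(value + pseudocount), the pseudocounts being 1.31, 0.997 and 0.982 for the first, rescue and neutrophil tables. All listed genes and all groups of a table entered, with Benjamini-Hochberg adjustment, and an adjusted p under 0.05 was called. The quasi-likelihood test of edgeR (4.0.16) on recovered reads, other pseudocounts, a filter on low values, TMM scaling, a replicate block and leaving out each library were alternatives. The fits were tested on simulated data. Replicates were compared by a chi-square test of their recovered reads, and all differed by more than counting noise (smallest chi-square per degree of freedom 3.58). The deviations of same-numbered first-table libraries from their group means correlated at -0.08, 0.16 and 0.32, so numbers were not taken to pair them.

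The members, lists, motifs and naming rule were chosen with earlier results of these data known. Named were the members, Il10ra, Il12a, Il12rb1, list genes that passed (up to 6 per list and comparison) and the 5 genes most like each member. A result that the rule names is counted with its list and not reported here. Ccr7, the other markers and Maf were named after their values were seen. Coordinates are from GENCODE M21 and RefSeq, a newer build than mm9, and are used for position only.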

Additional observations from a re-analysis of the deposited data

Results flagged for a closer look

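Within IL10R_abx, 1 library stood apart from the other 3 for both members of the rescue table. IL10R_abx_160 had Il12b at 10.9, against 4.80 to 5.64 in the others, and Ebi3 at 146, against 269 to 273. For Il12b these values are 5 reads against 3, 3 and 5, so in reads IL10R_abx_160 did not stand apart. IL10R_abx_160 was also the library with the fewest reads of the rescue table, 747046, and 1 read was worth 2.18 there. Chance gives such a gap in about 1 in 20 groups, and 7 sets of 4 or 5 libraries (a member in a group) were examined. Without that library the change of Il12b in IL10R_abx against IL10R was -1.99 and that of Ebi3 was 1.87, and Ebi3 kept its call.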

How the results depend on the processing

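Of 94 fits of a member under a setting other than leaving out a library, 90 kept direction and call, 4 gained a call and none reversed. Those 4 were Il12b in IL10R_P19 against IL10R (-2.59 in edgeR and -1.87 with the pseudocount multiplied by 4), Ebi3 there (0.79 in edgeR) and Ebi3 in littermate_abx against CX (0.56 on those groups alone). Il12b against IL10R of the rescue table is counted here although its listing depends on that group, so its calls support nothing. The quartile filter removed Il23a and Il12b and gives them no value. With the replicate block, Il23a was at 3.42 (limma adjusted p = 0.00873), Il12b at 3.51 (0.0149) and Ebi3 at 0.31 (0.487). The block gave 1054 called genes against 790 and changed no call of a member. In deviations from the group mean, CXhet 2 and CXhet 3 correlated best with their own number and CXhet 1 with IL10R 2.

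Fits on the groups compared alone called 1150 genes in IL10R against CX (661 in the shared fit), 7 in IL10R_P19 against CX (3), 2 for the antibiotics difference (8) and 151 in ko_ly6g against wt (403). edgeR called 353 in IL10R_P19 against IL10R (160), 27 for the antibiotics difference, 81 in ko_igg against wt (817) and 74 in ko_ly6g against wt. The cause was not tested, except that edgeR had 8 of 10 neutrophil-table libraries.

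Of 152 fits of a member without 1 library, 125 kept direction and call, 17 lost a call, 4 gained one and 6 reversed. Il23a in the first table ran from 2.97 to 4.02 and Il12b from 3.06 to 3.92, called in all 6 fits. Il12b ran from 2.58 to 3.21 in IL10R against CX, from -3.18 to -1.97 in IL10R_P19 against IL10R and from -2.09 to -1.55 in IL10R_abx against IL10R. Ebi3 ran from -1.16 to -0.77, 0.63 to 0.97 and 1.56 to 1.87 in the same comparisons. Ranges that crossed 0 were -0.30 to 0.92 for Il12b and -0.40 to 0.0024 for Ebi3 in IL10R_P19 against CX, -0.16 to 1.00 for Il12b in IL10R_abx against littermate_abx and -0.37 to 0.21 for Ebi3 in ko_ly6g against ko_igg. Reversals were all among uncalled values: in IL10R_P19 against CX, Ebi3 at 0.0024 without IL10R_P19_100 and Il12b at -0.30 without IL10R_P19_105 and -0.05 without CX 3; in IL10R_abx against littermate_abx, Il12b at -0.16 without littermate_abx_496; and in ko_ly6g against ko_igg, Ebi3 at 0.13 without ko_igg_18 and 0.21 without ko_ly6g 5. Where 1 CX library was left, it was assumed to vary like the other groups.

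Called genes without 1 library ran from 276 to 788 in the first table, 23 to 813 in IL10R against CX, 16 to 378 in IL10R_P19 against IL10R, 0 to 3 in IL10R_P19 against CX, 2 to 397 in IL10R_abx against littermate_abx, 1478 to 2525 in littermate_abx against CX, 0 to 61 for the antibiotics difference, 302 to 1339 in ko_igg against wt and 150 to 680 in ko_ly6g against wt. Il12b rested on 0 to 12 reads per library outside IL10R, which limits what depth can show there.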
